A study of Mus musculus with 6 samples.

Results

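The comparison described here asks what happens to the long non-coding RNAs (lncRNAs) of mouse spermatogonial stem cells (SSCs) in the first 8 h once GDNF, the glial cell line-derived neurotrophic factor, is given back to cultures that had been without it. It uses 4 of the 6 libraries of the series, 2 from cultures deprived of GDNF for 18 h (0h) and 2 from cultures that were deprived for 18 h and then refreshed with GDNF for 8 h (8h), and it pairs them by replicate number. The other 2 libraries are from normal culture (N), which was never deprived. They entered the fit to add to the estimate of the spread, and their values are given beside those of 0h and 8h. No library is from a culture kept without GDNF for the further 8 h. GDNF and the longer time in culture thus cannot be told apart in any change from 0h to 8h described below. A lncRNA was tested if 2 or more of the 4 libraries held at least 10 of its reads. This held for 35288 lncRNAs, of 71715 listed in these 4 libraries and 73710 listed in the series. Of the 35288, 14203 are known (NONCODE identifiers that begin with n) and 21085 are predicted (Cufflinks transcript numbers that begin with TCONS).

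All cultures started from Thy1-positive germ cells pooled from several C57BL/6 mice of 6 to 8 days of age, enriched with magnetic beads, grown on mitotically inactivated STO feeder cells and used at passages 10 to 20. The serum-free medium held GDNF at 20 ng/ml, GFRA1 at 150 ng/ml and FGF2 at 1 ng/ml, and no genetic change of the cells in culture is described for these libraries. The text of the study names C57BL/6 or transgenic reporter mice as donors of its cultures. It does not say which of them gave the sequenced lines. The study describes 2 SSC lines, isolated and established independently of each other, that each went through the 3 conditions. Such cultures are a mixture in which only some cells are stem cells, and some feeder cells can be collected with the germ cell clumps. Since the tables hold lncRNAs without gene symbols, the markers of neither SSCs nor feeder cells could be looked up. In RNA from whole cultures, fewer cells of a type and less RNA per cell cannot be told apart. The labels number the samples 01 and 02 without saying what the number stands for. Libraries of the same number are called a line below for short. The differences between numbers 01 and 02 were correlated between conditions, as a description. Pearson's r was between 0.513 and 0.586 across 7506 lncRNAs with at least 100 normalized counts, and between 0.162 and 0.222 across all 35288 tested. This correlation cannot show that the number marks a line, since any trait shared by libraries of 1 number would give it.

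GDNF is secreted by somatic cells of the testis and binds the co-receptor GFRA1 on undifferentiated spermatogonia, which then signals through the receptor tyrosine kinase RET. The signal keeps SSCs dividing without differentiation, and cultured SSCs depend on it. Taking the factor away for less than a day and giving it back is a common way to find the transcripts that follow it. lncRNAs are long transcripts without an evident open reading frame. Some act in the nucleus on neighbouring genes, others act in the cytoplasm, and for most of those catalogued no function is known.

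Depth was similar in the 6 libraries, with means over the replicates of 8317425 counted reads in 0h, 7846134 in 8h and 8026462 in N. The lncRNAs tested held 7554083 to 8367182 reads per library. A share of 3 counts in a library, the bound used for lncRNAs without a read in a condition, lay between 3.53e-07 and 3.90e-07 of its reads. This limit covers counting error only. Counts were scaled to effective library sizes by edgeR's TMM method, and the result is called the normalized count. Replicates of 1 condition differed by more than sampling noise, so none was counted as a copy of another.

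After GDNF refreshment 690 lncRNAs rose (1.96% of those tested) and 592 fell (1.68%), by at least 2-fold at a false discovery rate (FDR, Benjamini-Hochberg) under 0.05 by the quasi-likelihood test of edgeR, with the line as a block (n = 2 libraries per condition). Together these 1282 are 3.63% of the lncRNAs tested, and each of them had the same sign in line 1 and line 2, which the fit favours. Of the 690 that rose, 402 changed by 2- to 4-fold, 204 by 4- to 8-fold and 84 by 8-fold or more. Of the 592 that fell, 429 changed by 2- to 4-fold, 121 by 4- to 8-fold and 42 by 8-fold or more. In these counts the 27 risers without a read in 0h and the 7 fallers without a read in 8h stand at the lower bound that 3 counts per library allow. Of the risers 166 passed the filter only through 8h, and of the fallers 98 only through 0h, so the filter fixed their direction. The median log2 fold change was 1.83 among the risers (1.66 in line 1 and 1.89 in line 2) and -1.52 among the fallers (-1.52 and -1.56), against -0.00 over all lncRNAs tested.

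**Figure D1:**
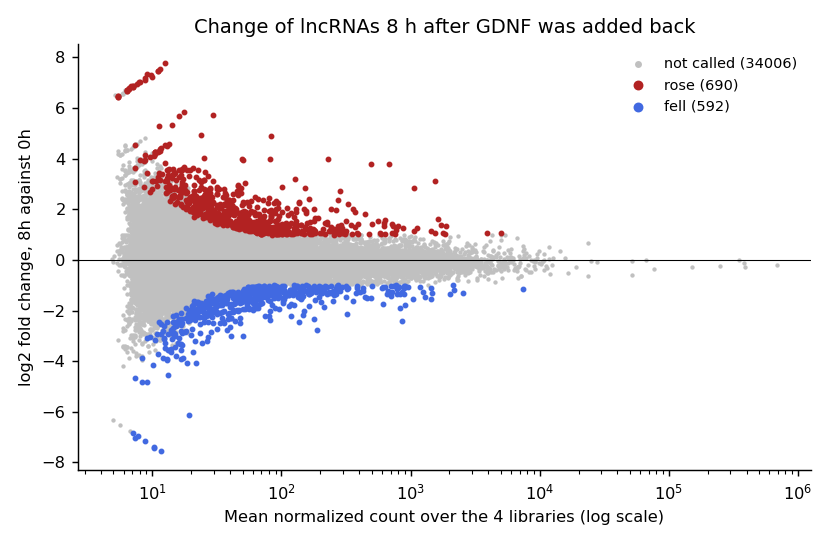
Each point is 1 of the 35288 tested lncRNAs, with its mean normalized count over the 4 libraries of 0h and 8h on a log axis and its fitted log2 fold change, 8h against 0h, on the vertical axis. The 690 that rose are red and the 592 that fell are blue. The short streaks beyond 6 log2 units on either side are lncRNAs without a read in 1 condition, whose fitted fold changes are not measured sizes, and the most abundant lncRNAs lie close to 0.

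The number of lncRNAs called rested on the pairing of the lines. Without the replicate block the calls by FDR were 185 risers and 139 fallers, and 322 of these 324 were also among the 1282. With DESeq2's Wald test, block kept, 379 rose and 326 fell. With the 4 libraries of 0h and 8h alone, block kept, 546 rose and 438 fell, and 955 of these were among the 1282. Scaling by total counts in place of TMM moved the balance, to 923 that rose and 474 that fell, so that risers were 66.1% of the calls in place of 53.8%. Without the second 8h library 421 rose and 466 fell, which makes replicate 2 of 8h the library on which the count of risers depended most. By the study's criterion, an unadjusted P below 0.05 and at least a 2-fold change, 2120 rose (6.01%) and 1710 fell (4.85%), and this count was less dependent on the block, with 1892 and 1522 without it.

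The lncRNAs that rose carried 0.529% and 0.525% of all counts in the 2 libraries of 0h and 1.48% and 1.61% in those of 8h. Those that fell carried 1.48% and 1.56% in 0h and 0.656% and 0.636% in 8h. These shares describe the lists, which were chosen on the same libraries. In N, which did not enter the contrast, the risers took 1.09% and 1.11% of the counts and the fallers 1.01% and 1.04%, between the values of 0h and 8h in each case. Of the 690 risers, 426 lay above both N libraries in both libraries of 8h, 38 lay below both, and 226 overlapped with N. Over all lncRNAs tested, 22.9% lay above both N libraries in 8h and 22.3% below both. Of the 592 fallers, 441 lay below both N libraries, 21 above both, and 130 overlapped. Since the libraries of 8h also chose the lists, these counts are a description and not a second test.

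Among the abundant lncRNAs that rose was the predicted TCONS_00074936, a transcript of 6384 bp. No other listed transcript has the length given for lncRNA033862, which the study places antisense to Gfra1, the gene of the GDNF co-receptor, which in GRCm38 is found between positions 58235604 and 58455909 of chromosome 19, minus strand. It had 3411 and 3072 normalized counts in 0h, 6155 and 7258 in 8h, and 9320 and 8327 in N. Both refreshed libraries lay above both deprived ones and below both libraries of normal culture. The log2 fold change of 8h against 0h was 1.05 (SE 0.11, FDR 1.4e-05 by the quasi-likelihood test of edgeR). It was close to the 2-fold limit, and leaving out 1 library at a time gave 0.85 to 1.24, with values under 1 when replicate 2 of either condition was the one left out. In the authors' RPKM it went from 61.9 ± 3.39 in 0h to 137 ± 10.8 in 8h, against 166 ± 13.5 in N (SD, n = 2 each). Since the study chose this lncRNA from these libraries, its direction is not independent evidence. The counts carry no strand, so reads from an overlapping gene cannot be told from its own.

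The predicted lncRNA TCONS_00116688 (3352 bp) was abundant as well and differed from the former in where N stood. Its normalized counts were 2433 and 2656 in 0h, 5477 and 5079 in 8h, and 2235 and 2730 in N. The deprived and the normal cultures overlapped, and only the refreshed cultures stood higher. The log2 fold change was 1.06 (SE 0.12, FDR 1.9e-05), and it was 0.89 without replicate 1 of 8h. The share of its length covered by reads was 71.9% and 62.4% in 0h and 89.4% and 88.0% in 8h. The known lncRNA n288273 (2761 bp) was also higher in 8h than in the other conditions, which overlapped, with 1086 and 1026 normalized counts in 0h, 2889 and 2494 in 8h, and 1641 and 1008 in N. Its log2 fold change of 1.34 (SE 0.14, FDR 1.1e-05) stayed between 1.17 and 1.54 with each library left out. This lncRNA and n295145 also appear in a list that the study made from these libraries.

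The known lncRNA n295145 (811 bp) rose toward the level of normal culture. It had 862 and 1028 normalized counts in 0h, 1951 and 3016 in 8h, and 2876 and 3095 in N, and of the libraries of 8h replicate 2 lay within the range of N and replicate 1 below it. The log2 fold change was 1.37 (SE 0.13, FDR 5.1e-06). Per length it was the most abundant riser described here, at 142 ± 20.4 RPKM in 0h and 397 ± 106.0 in 8h (n = 2, SD). The predicted TCONS_00085329, at 8120 bp the longest riser with at least 50 mean normalized counts, went from 1301 and 1145 to 2409 and 2504, against 2744 and 2397 in N. Reads covered 83.6% and 78.9% of its length in 0h and 93.2% and 95.7% in 8h. TCONS_00046293 (6111 bp) went from 1151 and 1155 to 2155 and 2643, with 1551 and 2380 in N. The log2 fold changes of these long transcripts were 1.01 (SE 0.12) and 1.04 (SE 0.14), with FDRs of 3.6e-05 and 0.00012. Both were under 2-fold without replicate 2 of 0h, at 0.95 and 0.83, and TCONS_00085329 also without replicate 2 of 8h, at 0.89.

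The largest rises among lncRNAs with at least 50 mean normalized counts were from very low levels in 0h. The predicted TCONS_00139672 (2837 bp) had 4 and 7 reads in 0h and 161 and 167 in 8h, or 4.09 and 6.66 against 157 and 165 normalized counts. In N it had 30 and 61 reads, so that both refreshed libraries were above both normal ones. Neither library of 0h reached 10 reads, so it was tested only through its counts in 8h and had to differ, and its FDR adds nothing to that. The fitted log2 fold change was 4.89 (SE 0.40, FDR 1.2e-06), a 29.7-fold rise, and it lay between 4.52 and 5.35 with each library left out. Reads covered 12.7% and 13.1% of the transcript in 0h and 85.6% and 84.6% in 8h, so that in 8h they were spread along most of its length. The known n290124 (1242 bp) rose from 34.7 and 20.9 to 431 and 436 normalized counts, with 287 and 248 in N. The replicates of 8h were close to each other, and the log2 fold change was 3.97 (SE 0.23, FDR 1.3e-08).

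Other large rises were less even between the lines. The known n288959 (3126 bp) had 103 and 61.9 normalized counts in 0h, 704 and 1864 in 8h, and 612 and 1482 in N. In both 8h and N, replicate 2 stood well above replicate 1, and the log2 ratio was 2.76 in line 1 and 4.90 in line 2. The fit gave 3.78 (SE 0.31, FDR 1.2e-06), which became 4.88 with replicate 1 of 0h left out and 2.80 with replicate 2 left out. The predicted TCONS_00126239, a transcript of only 487 bp, rose from 9.19 and 9.52 to 104 and 206 normalized counts (log2 fold change 4.0, SE 0.36, FDR 2e-06), with 45.7 and 83.2 in N. Its 9 and 10 reads in 0h would not have passed the filter without those of 8h. The known n289813 (862 bp) had 9 and 3 reads in 0h and 79 and 113 in 8h, with 44 and 63 in N. It too was tested only through its counts in 8h and had to differ. The fitted log2 fold change of 3.94 (SE 0.47, FDR 4.1e-05) became 5.21 with replicate 1 of 0h left out and 3.07 with replicate 2 left out.

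The most abundant lncRNA that fell was the known n417952, which is only 276 bp long. It had 10428 and 10165 normalized counts in 0h, 4122 and 5089 in 8h, and 10103 and 10892 in N. The deprived and normal cultures overlapped, and the refreshed ones stood far below both. The log2 fold change was -1.17 (SE 0.10, FDR 2e-06), and it stayed between -1.30 and -1.04 with each library left out. In RPKM it went from 4550 ± 5.12 in 0h to 2167 ± 241.1 in 8h, against 4567 ± 235.4 in N (SD, n = 2 each). The predicted TCONS_00112746 (2014 bp) had the same order, with 2900 and 2809 normalized counts in 0h, 1390 and 918 in 8h, and 3337 and 2695 in N. Its log2 fold change was -1.33 (SE 0.13, FDR 6.1e-06).

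In other abundant fallers, 0h stood above N as well as above 8h. The known n267414 (2711 bp) had 2512 and 3579 normalized counts in 0h, 1193 and 1453 in 8h, and 1275 and 1556 in N, so that 8h and N overlapped. Its log2 fold change was -1.19 (SE 0.12, FDR 7.3e-06). The known n266502 (1406 bp) had 3195 and 4056 in 0h, 1223 and 1688 in 8h, and 1922 and 2261 in N, and fell below the level of N (log2 fold change -1.32, SE 0.12, FDR 1.6e-06). The known n286201 (1736 bp) did the same, from 1937 and 2229 to 775 and 902, with 1226 and 1187 in N (-1.31, SE 0.13, FDR 5.1e-06). The fall of n284660 (3275 bp) was less firm. It had 2352 and 3325 normalized counts in 0h, 1081 and 1780 in 8h, and 954 and 1195 in N, with a log2 fold change of -1.01 (SE 0.12, FDR 6.6e-05), but without the block its FDR was 0.076 (at most 0.0011 with a library left out), and the change was under 2-fold in 8 of the 13 other fits.

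n266295 (2106 bp), a known lncRNA that the study names among those that respond to withdrawal, fell from 401 and 290 normalized counts in 0h to 190 and 94.6 in 8h. It had 121 and 121 in N, which lies between the libraries of 8h. The log2 fold change was -1.31 (SE 0.21, FDR 0.00099), with -1.08 in line 1 and -1.61 in line 2. Without the block the FDR was 0.073, in the fits with a library left out it was at most 0.0074, and without replicate 2 of 8h the log2 fold change was -0.98. As with TCONS_00074936, the study chose it from these libraries.

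Among the lncRNAs with the largest falls was TCONS_00069400, a predicted transcript of 8942 bp. It had 1228 and 1650 normalized counts in 0h, 298 and 238 in 8h, and 308 and 357 in N. The refreshed libraries were both below the normal ones, which were themselves far below 0h. Its log2 fold change of -2.41 (SE 0.17, FDR 1.6e-07) stayed between -2.75 and -2.09 with each library left out. Reads covered 97.4% and 98.7% of its length in 0h and 69.1% and 60.9% in 8h. The known n294514 (1729 bp) fell from 108 and 70.4 to 9.73 and 11.8, with 19.1 and 4.06 in N (log2 fold change -3.0, SE 0.47, FDR 0.00065). The change was -2.37 with replicate 1 of 8h left out and -3.67 with replicate 2 left out. The known n201097 (1997 bp) fell from 83.8 and 193 to 21.4 and 28.6 but stayed above N, where it had 4.25 and 11.2 (-2.39, SE 0.34, FDR 0.00026).

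In the remaining large falls, those of n291804 and n272557, the N libraries lay on both sides of those of 0h. The known n291804 (1361 bp) had 322 and 332 normalized counts in 0h, 54.5 and 40.4 in 8h, and 269 and 416 in N (log2 fold change -2.78, SE 0.24, FDR 1.4e-06). Its reads covered only a part of the transcript in every condition, between 23.8% and 51.1% of its length in the 6 libraries. The known n272557 (1223 bp) had 226 and 238 in 0h, 43.8 and 42.4 in 8h, and 327 and 184 in N (-2.44, SE 0.26, FDR 1.1e-05). The longest faller was n411770, of 10780 bp, with 1080 and 978 in 0h, 599 and 436 in 8h, and 820 and 732 in N, which lay between the other conditions. Its log2 fold change of -1.0 (SE 0.14, FDR 0.00023) was at the limit for a call. It ranged from -1.16 to -0.85 with each library left out and was under 2-fold in 10 of the 13 other fits, that without the block among them.

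**Figure D2:**
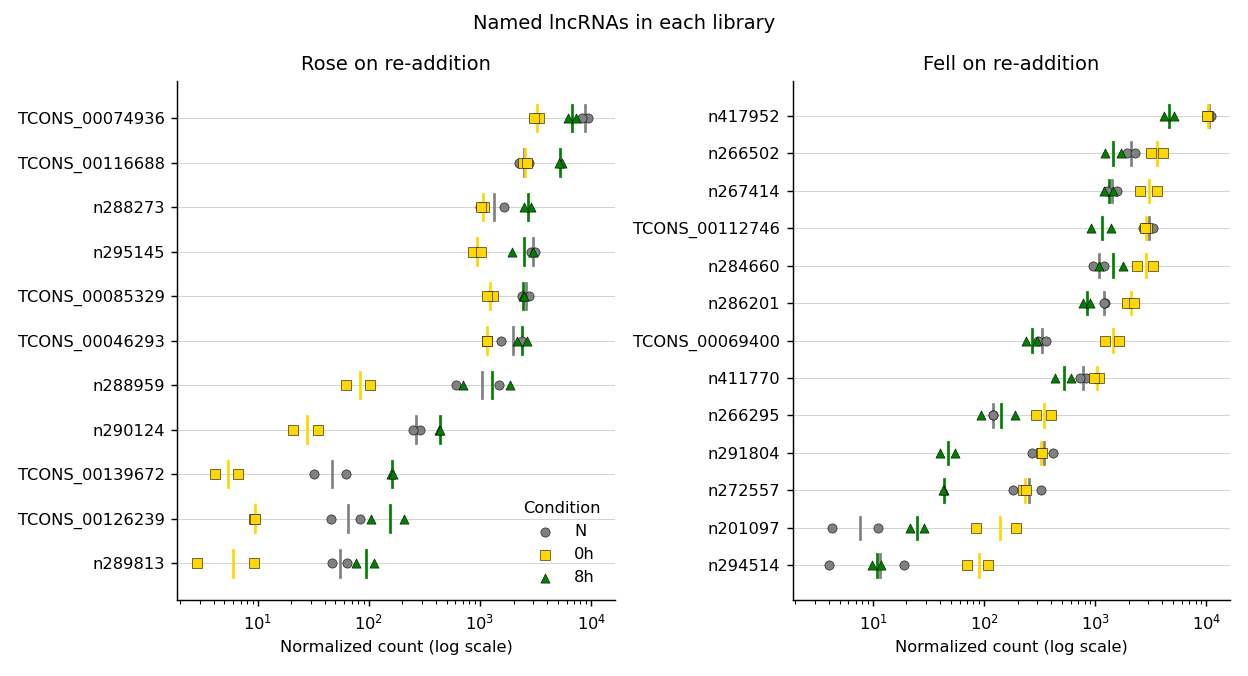
Normalized counts of 24 named lncRNAs on a log axis, with grey circles for N, yellow squares for 0h and green triangles for 8h, 1 symbol per library and a short vertical bar at the mean of each condition. On the left are the 11 that rose and on the right the 13 that fell. In each of them both 8h symbols lie to 1 side of both 0h symbols, which their choice by this contrast favours. Over all 35288 lncRNAs tested, both 8h libraries lay above both of 0h in 23.1% and below both in 22.9%. The position of N varies, as in TCONS_00116688, where N lies with 0h, and in TCONS_00069400, where N lies with 8h.

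Some lncRNAs had no read at all in 1 of the conditions. No read was counted in either library of 0h for 36 of the tested lncRNAs, of which 4 were known and 32 predicted, and for 11 in either library of 8h, all 11 of them predicted. Such lncRNAs passed the filter only through the condition in which they were present, so they had to differ. Counts in the other condition were low, from 10 to 31 in the former and from 10 to 35 in the latter, and 30 of the 36 and 6 of the 11 had reads in both N libraries. At the FDR threshold 27 and 7 were called. The predicted TCONS_00014518 (2172 bp) had no read in 0h, 21 and 30 in 8h, and 3 and 15 in N, and was at least 8.44-fold higher in 8h. TCONS_00104894 (1523 bp) had no read in 0h, 21 and 26 in 8h, and 7 and 6 in N, and was at least 7.78-fold higher, but its FDR was 0.058 without replicate 2 of 8h and under 0.05 in the other fits that gave one. The predicted TCONS_00083005 (1553 bp) had 13 and 35 reads in 0h and none in 8h, and was at least 7.93-fold lower, with an FDR of 0.14 without replicate 2 of 0h and under 0.05 in the other fits that gave one. In N, TCONS_00083005 had 12 and 4 reads. TCONS_00114150 (750 bp) had 18 and 24 reads in 0h, none in 8h, and 0 and 2 in N, and was at least 7.02-fold lower in 8h than in 0h. Its FDR was 0.07 without the block and 0.15, 0.069 and 0.11 without replicate 1 of 0h, replicate 2 of 0h and replicate 2 of 8h. These bounds set the mean of the higher condition against 3 counts per library. More widely, 1863 lncRNAs passed the filter only through their counts in 8h and 1287 only through those in 0h. Of these 166 and 98 were called, against 1282 of all 35288 tested, and their direction was fixed by the filter.

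Known and predicted lncRNAs both contained risers and fallers. Of the 14203 known lncRNAs 227 rose (1.60%) and 224 fell (1.58%), and of the 21085 predicted ones 463 rose (2.20%) and 368 fell (1.75%). Known lncRNAs thus made up 35.2% of the calls (451 of 1282) and 40.2% of the lncRNAs tested. The exact binomial 95% interval of the former, 32.6% to 37.9%, covers counting error only. It treats lncRNAs as independent, which they are not, so it is no test of the difference. This share of the calls was 41.0% without the block and 42.6% with DESeq2, where known lncRNAs were 51.1% of those given an FDR. The median log2 fold change was -0.04 for known and 0.03 for predicted lncRNAs, which is small beside the fold changes called. By the unadjusted P, 3.87% of known lncRNAs rose and 3.64% fell, against 7.45% and 5.66% of predicted ones. The classes also differed in abundance and length, with medians of 47.9 normalized counts and 2086 bp for known lncRNAs and 18.8 normalized counts and 1289 bp for predicted lncRNAs.

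At similar abundance the share called was higher for predicted lncRNAs in each of the 5 classes of mean normalized count. Between 50 and 100 normalized counts 3.11% of known lncRNAs rose and 3.40% fell, against 5.71% and 5.36% of predicted ones. Between 100 and 500 the shares were 1.73% and 2.15% for known and 3.80% and 2.92% for predicted lncRNAs. At 500 or more they were 1.08% and 1.52% against 1.52% and 1.85%. Below 20 normalized counts, where 11171 of the 21085 predicted and 3918 of the 14203 known lncRNAs lay, only 0.64% of known lncRNAs rose and 0.23% fell, against 0.99% and 0.68% of predicted ones. No test was made of these differences, since lncRNAs are not replicates.

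**Figure D3:**
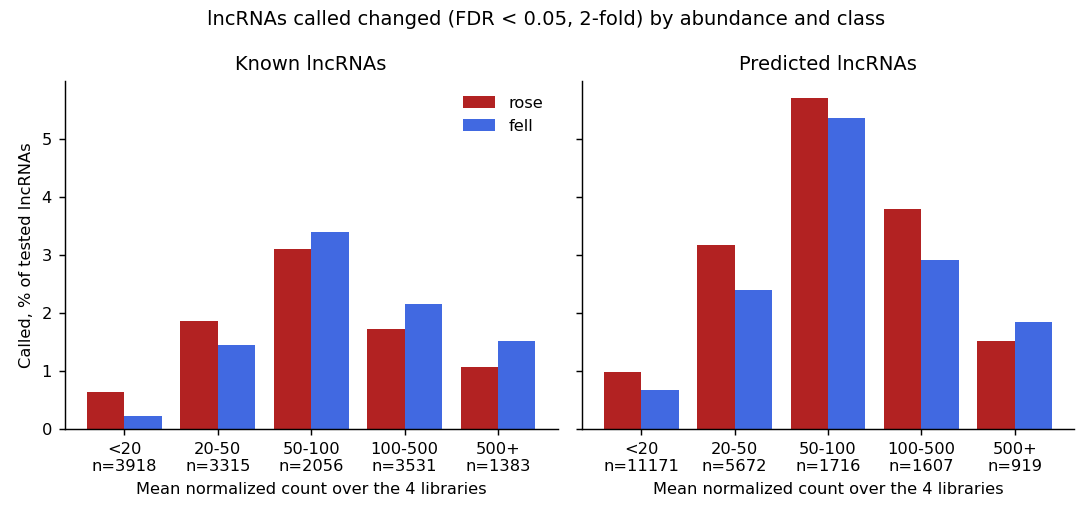
Percent of tested lncRNAs that rose (red) or fell (blue) at an FDR below 0.05 and at least 2-fold, by class of mean normalized count over the 4 libraries, for known lncRNAs on the left and predicted ones on the right, with the number tested under each class. In both panels the bars are highest between 50 and 100 normalized counts, where 5.71% of predicted lncRNAs rose and 3.11% of known ones did.

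The share called at the FDR threshold differed with abundance. Over known and predicted lncRNAs together, 1.46% were called below 20 mean normalized counts, 4.74% between 20 and 50, 8.59% between 50 and 100, 4.77% between 100 and 500, and 2.91% at 500 or more. The counts behind the highest class were 162 that rose and 162 that fell among 3772 lncRNAs. Without the block the share called between 50 and 100 was 1.64%, and with lncRNAs classed by their level in N, which does not enter the contrast, it was 7.21%. By the unadjusted P the order was another. Below 20 normalized counts 6.64% rose and 4.65% fell, between 20 and 50 8.50% and 7.24%, and between 50 and 100 5.38% and 5.22%. The peak between 50 and 100 is thus particular to the FDR threshold. The 2302 lncRNAs of 500 or more normalized counts held 74.5% of all counts, and of these 29 rose and 38 fell. The median log2 fold change went from 0.09 below 20 normalized counts to -0.09 at 500 or more. Scaling by total counts raises the median of all lncRNAs by 0.096 on the log2 scale, and with it these medians were 0.19 and 0.01, so the lower one did not keep its sign.

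Before abundance was taken into account, calls were most frequent among lncRNAs of 2000 bp or more. Of those under 500 bp 1.66% rose and 0.70% fell, of those from 500 to 1000 bp 1.31% and 1.07%, of those from 1000 to 2000 bp 1.80% and 1.70%, and of those from 2000 to 5000 bp 2.56% and 2.18%. Between 5000 and 10000 bp 18 of 707 rose (2.55%) and 11 fell (1.56%), and of the 8 lncRNAs of 10000 bp or more, n411770 fell and none was called as a riser. Length and abundance went together, with a median of 15.9 normalized counts between 500 and 1000 bp and 46.8 between 2000 and 5000 bp. Among lncRNAs with at least 100 mean normalized counts, 2.46% rose and 2.64% fell between 2000 and 5000 bp. The shares were 1.75% and 0.95% between 500 and 1000 bp, 1.32% and 1.96% between 1000 and 2000 bp, and 2.53% and 1.56% between 5000 and 10000 bp. At 50 or more mean normalized counts, 4.88% were called between 500 and 1000 bp and 5.49% between 1000 and 2000 bp. It was 6.32% between 2000 and 5000 bp but 4.23% between 5000 and 10000 bp, so calls did not keep rising with length. Without the block the share called between 2000 and 5000 bp was 1.40% in place of 4.74%.

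More transcripts were listed after refreshment, but the difference was mostly in line 1. With at least 1 read, 59280 and 60565 lncRNAs were listed in 0h, 62036 and 61107 in 8h, and 58925 and 60369 in N. Both libraries of 8h were above the other 4. The mean difference of 8h over 0h was 1649, with 2756 in line 1 and 542 in line 2, and the exact permutation test of 2 against 2 libraries gave p = 0.333 (two-sided), the smallest p that this design allows. The libraries of 8h had fewer reads than those of 0h, and thinned to the depth of replicate 1 of 8h, the shallowest library, the expected numbers were 59093 and 60213 in 0h and 62036 and 60972 in 8h. With at least 10 reads the difference was 2000 in line 1 and -91 in line 2, so that the lines did not share a direction. Known lncRNAs numbered 22416 and 22786 in 0h and 23483 and 22969 in 8h, and predicted ones 36864 and 37779 in 0h and 38553 and 38138 in 8h.

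Known lncRNAs took 70.7% and 70.2% of all counts in 0h, 69.4% and 70.0% in 8h, and 70.4% and 69.9% in N. The difference of 8h from 0h was -0.81 percentage points, with -1.34 in line 1 and -0.28 in line 2 (exact permutation p = 0.333, two-sided). It was smaller without the 9 most abundant lncRNAs of the 4 libraries, at -0.31 points. Those 9 took 32.2% and 30.0% of the counts in 0h and 29.4% and 28.9% in 8h.

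The change in 1 line was mirrored in the other to an extent that followed abundance. The log2 ratio of 8h over 0h was taken within each line on normalized counts plus 0.5, and the ratios of the 2 lines share no library. Over all 35288 lncRNAs 64.9% had the same sign in both lines, and Pearson's r between the lines was 0.37. Below 20 normalized counts these were 59.8% and 0.31, between 20 and 50 they were 64.0% and 0.46, between 50 and 100 they were 69.3% and 0.63, between 100 and 500 they were 73.3% and 0.71, and at 500 or more they were 76.4% and 0.80. Part of this agreement was set by the filter. The 1863 lncRNAs that passed it only through 8h and the 1287 only through 0h had to move the same way in both lines. These correlations run across lncRNAs, which are not independent of each other, and are given as a description. For known and predicted lncRNAs these values were close, with 71.6% and 74.2% of the same sign and r of 0.65 and 0.71 at 50 or more normalized counts.

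Choosing lncRNAs in 1 line and reading them in the other shows how far a change in a single line held up. Of the 408 lncRNAs with at least 50 mean normalized counts that rose by 2-fold or more in line 1, 94.9% were also higher in line 2 and 51.2% were higher by 2-fold or more, against 4.36% of all 11212 lncRNAs of this abundance. Of the 460 that fell by 2-fold or more in line 1, 94.6% were also lower in line 2, and 46.7% by 2-fold or more, against 4.15% of all. Over all 11212 lncRNAs, whatever their direction, the lines had the same sign in 72.6%. The median log2 ratio of the 408 was 1.28 in line 1 and 1.02 in line 2, and that of the 460 was -1.23 and -0.96. Below 20 normalized counts the outcome was weaker. Of 3569 lncRNAs chosen as risers in line 1, 67.6% had the same sign in line 2. Over all lncRNAs of this abundance the lines had the same sign in 59.8%. In line 2, 35.9% of the 3569 were higher by 2-fold or more, against 21.6% of all, and 10.4% were lower by 2-fold or more. Those that passed the filter only through 1 condition were kept in these shares, and the filter fixed their direction in both lines.

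**Figure D4:**
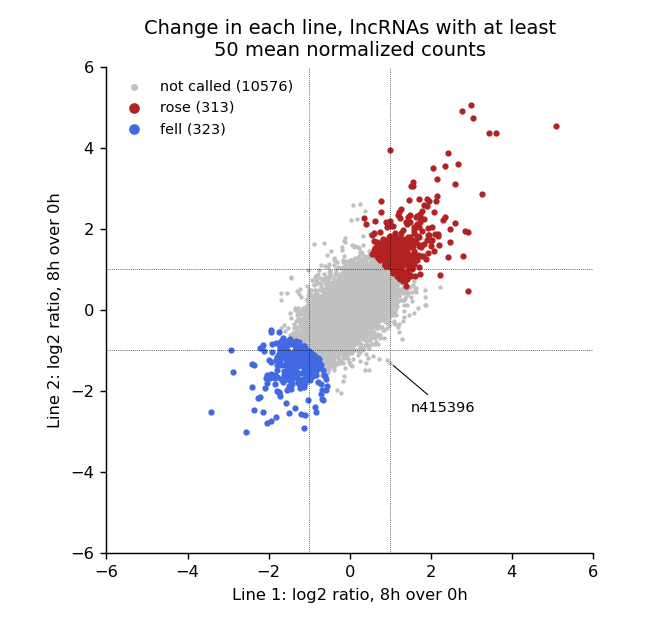
log2 ratio of 8h over 0h in line 1 (horizontal) and line 2 (vertical) for the 11212 lncRNAs with at least 50 mean normalized counts, with the 313 that rose in red, the 323 that fell in blue and the others in grey. Dotted lines mark 2-fold changes. The called lncRNAs lie in the upper right and lower left, where 209 rose and 215 fell by 2-fold or more in both lines, and n415396 is alone past 2-fold in opposite directions.

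Among these 11212 lncRNAs 209 rose by 2-fold or more in both lines and 215 fell by 2-fold or more in both. In a single case, the known n415396 (3095 bp), the lines moved apart by 2-fold or more each, and none showed the opposite pattern. n415396 had 41 and 60 reads in 0h and 87 and 23 in 8h, with 51 and 36 in N, and its change over both lines was -0.05 (SE 0.42, FDR 0.97).

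Calls of predicted lncRNAs were often adjacent in transcript number. Cufflinks numbers the transcripts it assembles in order along the genome, and several may belong to a single locus and share reads. Of the 463 predicted lncRNAs that rose, 212 had a tested transcript numbered 1 below or above, and for 62 of these (29.2%) that neighbour also rose. Over all 8234 tested predicted lncRNAs with such a neighbour, 2.94% had 1 that rose. Of the 368 that fell, 156 had a tested neighbour, and for 27 (17.3%) the neighbour also fell, against 2.22% of all 8234. In no case was a called lncRNA beside 1 called in the opposite direction. The files give no coordinates, so how many separate loci the predicted lncRNAs stand for was not tested.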

How the data were processed

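The 6 libraries of 3 conditions were analysed from 1 table each, with conditions and replicate numbers taken from the sample labels. Total RNA was depleted of ribosomal RNA, primed with random hexamers and sequenced on an Illumina HiSeq 2000. The authors deposited raw counts of reads per lncRNA, with its length, the share of the length covered and the RPKM, which in every row equals the count divided by length and by the total count within 0.1%. Known lncRNAs came from NONCODE and predicted ones from Cufflinks and the Coding Potential Calculator. The aligner, its version and the genome build are not given in the sources used here. Depth on the lncRNAs tested was 7554083 to 8367182 counts per library. A lncRNA absent from a table was given a count of 0, and the lowest listed count was 1.

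Counts were tested with edgeR 4.0.16 (TMM, quasi-likelihood test, R 4.3.3) in 1 fit of the 6 libraries, with condition and replicate number as terms. The replicate number was kept as a block because the comparison is paired by it and the study took each of its 2 lines through every condition, although the labels do not say that the number marks the line. The differences between numbers 01 and 02 correlated between conditions at 0.162, 0.181 and 0.222 over 35288 lncRNAs. With the block, the 4 libraries alone leave 1 residual degree of freedom, so N stayed in the fit, and its estimated biological coefficient of variation was 21.4%. The p-values rest on 2 samples per condition. A call needed a 2-fold change or more and an FDR (Benjamini-Hochberg) under 0.05. Standard errors are the log2 fold change divided by the square root of the F statistic. The test was checked on simulated counts, where the recovery of smaller changes just missed the first limit set for it and the limit was then lowered, and 13 other fits were run, among them DESeq2 1.42.0. Exact permutation tests used scipy 1.17.1 in Python 3.11.15.

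The lncRNAs named are n266295 and TCONS_00074936 (lncRNA033862, by length alone), which the text of the study names, the 6 most abundant called in each direction, the 5 with the largest log2 fold change in each direction and the 3 known ones with the largest among those with at least 50 mean normalized counts, the 2 without reads in 0h and the 2 without reads in 8h that had the highest counts, the longest called in each direction, and those past 2-fold in opposite directions in the lines. The comparison and these rules were chosen with earlier results of these data known. Sequences and coordinates of the lncRNAs were not used here.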

Additional observations from a re-analysis of the deposited data

Results flagged for a closer look

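The known lncRNA n415396 was singled out because its lines moved in opposite directions, with a log2 ratio of 8h over 0h of 1.01 in line 1 and -1.31 in line 2. The difference between the lines was not tested, since each line has 1 library per condition, and the counts behind it were low, with 41 and 87 reads in line 1 and 60 and 23 in line 2.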

How the results depend on the processing

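Of the 28 named lncRNAs that were called, 24 had an FDR in all 13 other fits and 4, those without reads in a condition, in 11, and none changed direction in these. The same held for all of the 1282 calls that these fits tested. The fits use the same libraries, so this is no independent support. Without the replicate block 185 lncRNAs rose and 139 fell at the FDR threshold, known lncRNAs were 41.0% of the calls, and the share called was 1.64% between 50 and 100 normalized counts and 1.40% between 2000 and 5000 bp. The FDRs of n266295, n284660 and TCONS_00114150 then missed the threshold, and n411770, like n284660, was under 2-fold. DESeq2's Wald test gave 379 and 326, with 42.6% known, and left 15051 lncRNAs without an adjusted p, among them those 4. Without a filter 31.8% of the calls were known, as were 38.7% of those tested. With at least 50 counts in 2 of the 4 libraries, 392 fell by FDR, 558 rose and 400 fell by the unadjusted P, 43.3% of the calls and 60.9% of those tested were known, and the lines had the same sign in 72.5% with r of 0.68. The cause of these moves was not tested, except that the last setting tests 12038 lncRNAs, without those 4.

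With each library left out, 421 to 652 rose and 436 to 532 fell by FDR, 1601 to 2209 and 1486 to 1736 by the unadjusted P, and known lncRNAs were 35.6% to 40.4% of the calls. In each line alone, 8h listed 542 to 2756 more lncRNAs than 0h, and the share of counts on known ones differed by -1.34 to -0.28 points. Without the 9 most abundant lncRNAs the latter was -0.31 points. A pseudocount of 5 gave r of 0.43 between the lines, and classes by the level in N gave 7.21% called between 50 and 100 normalized counts. Depth limits what can be said of lncRNAs with few reads, since the median listed count was 11.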
